A study of Mus musculus with 2669 samples.

Results

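A set of 9 genes known as markers of early and of late neural progenitors was followed in single cells of the embryonic mouse ganglionic eminences. They are HMGA2, LIN28B, IGF2BP1, IGF2BP2 and IGF2BP3, called early here, and NFIA, NFIB, NFIX and ZBTB20, called late. The genes were chosen by symbol, and their 9 symbols matched 10 of the 37310 gene entries in the count table; a second entry with the symbol ZBTB20 held no reads and was left out. The study captured cells of CD1 mouse embryos on Fluidigm C1 chips and sequenced polyadenylated RNA over the full transcript length. Cells came from the dorsal and the ventral medial ganglionic eminence (dMGE and vMGE) and from the caudal ganglionic eminence (CGE), the ventral forebrain zones where cortical interneurons are born. Each zone was sampled at the embryonic days E12.5 and E14.5, which gives 6 groups of the same strain without any treatment. The question followed here is how each gene differed between the ages within a zone.

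Neural progenitors change with age: they first produce neurons and later turn to glia. HMGA2, a chromatin protein, LIN28B, an RNA-binding protein that blocks the maturation of the let-7 microRNAs, and the IGF2BP proteins, which bind messenger RNAs and affect their stability, location and translation, are known for high levels in young progenitors. The let-7 microRNAs accumulate as progenitors age and repress several of these early genes through sites in their 3′ untranslated regions. NFIA, NFIB and NFIX are transcription factors of the nuclear factor I family and ZBTB20 is a zinc finger transcription factor; they are known for roles in older progenitors and in the onset of gliogenesis.

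The let-7 microRNAs share one seed, the stretch that pairs with targets, so its complement in the 9 genes shows which of them carry a candidate target site. All 8 mature mouse let-7 sequences read from RefSeq (GRCm38.p6) hold the same 7 bases at positions 2 to 8, in capitals in these 4 examples.
let-7a-5p: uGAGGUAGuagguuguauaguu
let-7b-5p: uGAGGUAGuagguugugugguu
let-7g-5p: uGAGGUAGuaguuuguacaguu
let-7i-5p: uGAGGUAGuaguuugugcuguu
Their complement, CTACCTC, was searched on the transcript strand of the longest 3′ untranslated region of each gene (GENCODE vM21, GRCm38). One match is shown for each gene that had any, the match nearest the stop codon among those followed by A where there was one; capitals mark the match, with the A that often follows a let-7 site where it was present. All lie in the last, noncoding part of the transcript.
HMGA2, chr10:120364217-120364243, minus strand: gacattcaatttCTACCTCAgcatcag
LIN28B, chr10:45381015-45381041, minus strand: cgggcgggaagtCTACCTCAtgcaagc
IGF2BP1, chr11:95961771-95961797, minus strand: gtgcgaagtaaaCTACCTCAaggtgtg
IGF2BP2, chr16:22059466-22059492, minus strand: cacaaataaaagCTACCTCAggtgttt
IGF2BP3, chr6:49086780-49086806, minus strand: atttttactcaaCTACCTCAggtattc
NFIA, chr4:98117921-98117947, plus strand: acaggagaagtgCTACCTCtgatctaa

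HMGA2, LIN28B and IGF2BP1 held 4 matches each, IGF2BP2 and IGF2BP3 held 1 each. Of the late genes, NFIA held 1 match and NFIB, NFIX and ZBTB20 held 0. The 5 early genes together had 14 matches in 17699 bases, 0.791 per kilobase, and 7 of them were followed by A. The 4 late genes had 1 match in 42069 bases, 0.0238 per kilobase. Over 20910 protein-coding genes with a 3′ untranslated region, 8.98% held a match, 0.153% held 3 or more, and the density was 0.0699 per kilobase. Among the 6133 genes whose region was as long as those of the members, from 1784 to 23858 bases, 18.9% held a match and 0.473% held 3 or more. These letters describe the sequence alone: mature let-7 carries no poly-A tail and was not measured in these libraries.

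**Figure D1:**
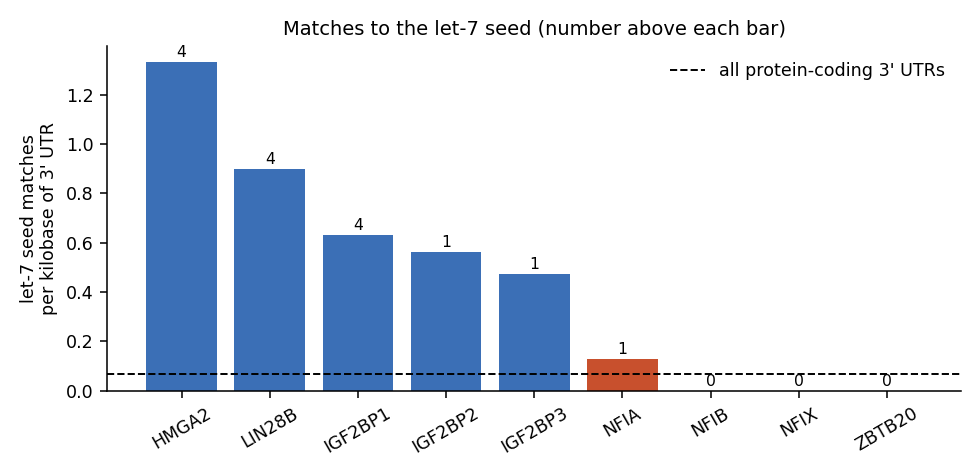
Matches to the let-7 seed complement CTACCTC per kilobase of the longest 3′ untranslated region (vertical axis) for each of the 9 genes (horizontal axis), with the number of matches above each bar and the mean of all 3′ untranslated regions as a dashed line. HMGA2 stands highest with 4 matches, and 3 of the 4 late genes have none.

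The 2669 cells lay on 37 chips, each chip holding one zone at one age, with 28255640 to 101482176 reads in genes per chip and chip medians of 1396 to 4656.5 detected genes per cell; 2650 cells were kept. The labels name no animals, so the chip was taken as the replicate, and p-values measure only the spread between chips, which may be technical. Clusters were read as progenitor-like (724 cells) or neuron-like (813 cells) from marker genes, and 1113 cells stayed unnamed. Every progenitor-like cluster was named by the cycling marker list, and none by the radial glia or intermediate progenitor list. For the sums, 32 chips had enough progenitor-like and 24 enough neuron-like cells. Every chip of E12.5 and every chip of CGE carries a number of 160 or above, whereas 9 of the 13 E14.5 MGE chips carry numbers of 101 or below. In the MGE the age and this chip series therefore cannot be told apart, except through 4 later chips (191, 192 and 193 of dMGE and 194 of vMGE). The same split ran through the clusters. Of the E14.5 progenitor-like cells on chips below 160, 99.1% in dMGE and 100% in vMGE lay in cluster 4, led by DPYSL2 and PTP4A2, which held 1.72% and 1.3% of the E12.5 cells; the E12.5 cells lay mostly in clusters 3 and 7. Of the E14.5 neuron-like cells on those chips, 100% and 99% lay in cluster 5, whereas at least 99.4% of the E12.5 cells lay in cluster 0. Age changes in the MGE therefore compare mostly different clusters of a class. In CGE both ages lay mostly in clusters 3 and 7 (92.2% and 94.9% of progenitor-like cells) and in cluster 0 (99.2% and 98.8% of neuron-like cells). No CGE chip is numbered below 160, but chip number and age are not independent there either: the E14.5 chips 160, 161 and 162 precede all E12.5 chips (172 to 187), chips 189-2 and 190-2 follow them, and the neuron-like sums at E14.5 come from the first 3 alone. In progenitor-like cells the median reads per cell went from 1014754 at E12.5 to 830005 at E14.5 in CGE, from 1003592 to 562594 in dMGE and from 930743 to 589193 in vMGE. Endothelial, microglial and pericyte lists summed to at most 14.7, 4.13 and 26.2 CPM (reads of a gene per 1e6 reads in genes) on any chip of progenitor-like cells. Erythroid and pallial excitatory lists reached 348.9 and 443.6 CPM, both in dMGE at E14.5, where their medians over chips were 14.93 and 0.0527 CPM. The part of these 2 lists in the members' values was not tested.

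In CGE progenitor-like cells, which came from 5 chips at E12.5 and 4 at E14.5, the early genes HMGA2, IGF2BP2 and IGF2BP3 had lower values at E14.5 and the late gene NFIX had higher ones. NFIX was 4.5 times higher by the ratio of medians, and IGF2BP3 at E14.5 was at 0.165 of its E12.5 median. These 2 genes were the members whose ages did not overlap over chips, NFIX upward and IGF2BP3 downward, where 1.41% of the 13365 tested genes did not overlap in either direction. None of the 9 passed the edgeR quasi-likelihood test after Benjamini-Hochberg adjustment over all genes, where 0% of genes passed (0 genes, against 912 at an unadjusted p under 0.05 and 519 by DESeq2). Values below are CPM scaled with TMM factors, from reads summed over the cells of a class on each chip.

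HMGA2 in CGE progenitor-like cells stood at 25.5, 0, 35.5, 5.59 and 0 CPM on the E12.5 chips 172, 175, 179, 182 and 187. On the E14.5 chips 160, 161, 162 and 190-2 it stood at 0.741, 0, 0.260 and 0 CPM. The E12.5 chips 172, 179 and 182 lay above every E14.5 chip, but the other two were at 0, so the ages overlapped. The fitted log2 change was -5.68 ± 2.27 (SE; edgeR p = 0.0174, adjusted p = 0.674). DESeq2's Wald test gave -5.45 and an adjusted p of 0.0206, which passed the threshold, as did 3.88% of genes. On these chips 21.5% of the E12.5 cells (23 cells) and 5.26% of the E14.5 cells (3 cells) had an HMGA2 read.

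HMGA2 was also followed over every kept CGE cell. Pooled over chips, it was read in 69 E12.5 cells (14.8% of them) and in 7 E14.5 cells (1.81%). After each cell was thinned to 50000 reads the pooled shares were 10.3% and 0.259%. Before thinning the chip shares ran from 2.38% to 32.4% and from 0% to 2.67%, so they overlapped. By chip, the level over all cells was 24.98, 52.4, 16.3, 1.26, 28.6 and 7.32 CPM at E12.5 (chips 172, 175, 179, 182, 186 and 187) and 0.125, 0.0253, 0.0277, 0 and 0.0294 CPM at E14.5 (chips 160, 161, 162, 189-2 and 190-2). Every E12.5 chip lay above every E14.5 chip in this sum, which includes cells that no marker list named. The share of all genes without overlap was not determined for this sum. Its mix of classes also changed: at E14.5 progenitor-like cells made up a smaller share of the kept CGE cells and neuron-like cells a larger one. The part of this mix in the HMGA2 values was not tested. The log2 change of HMGA2 over all cells was -8.96 ± 2.04, not called after adjustment (edgeR adjusted p = 0.407).

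LIN28B, whose product holds let-7 levels down, was read in few progenitor-like cells of the CGE. Its progenitor-like values were 0.783, 0.832, 0.854, 12.8 and 0 CPM at E12.5 and 7.64, 0, 0 and 5.40 CPM at E14.5. The fitted change was 0.09 ± 2.27 on the log2 scale, and neither age stood apart. Only 13 and 2 cells carried a read.

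IGF2BP3, the member of its family with the highest level per length in this zone, was read at 91.2, 173.0, 133.8, 77.3 and 80.3 CPM on the 5 E12.5 chips. The 4 E14.5 chips gave 17.1, 30.7, 12.98 and 4.65 CPM, all below the lowest E12.5 chip. The means were 111.1 ± 41.3 (SD, n = 5) and 16.4 ± 10.9 CPM (SD, n = 4). The log2 change was -2.76 ± 1.04 (edgeR p = 0.0116, adjusted p = 0.674). The size depended on the clusters: when genes were not scaled before clustering, the change was -0.12 ± 0.84, and over all cells of a chip it was -0.57 ± 0.75. The pooled share of all kept cells with a read was 61.9% at E12.5 and 33.1% at E14.5, or 34.5% and 18.4% after thinning. By chip the share before thinning ran from 38.1% to 84.5% and from 17.1% to 50.7%, so the ages overlapped.

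IGF2BP2 was at 43.4, 104.1, 112.2, 35.3 and 6.05 CPM at E12.5 and at 0.684, 0, 13.1 and 3.03 CPM at E14.5. All E12.5 chips but chip 187 exceeded all E14.5 chips. Its log2 change was -3.85 ± 1.84 (edgeR p = 0.0439, adjusted p = 0.716). IGF2BP1, the third family member, had 9.49 to 54.4 CPM at E12.5 and 6.56 to 59.7 CPM at E14.5, with a change of -0.20 ± 0.90, so the ages covered the same range. Pooled over all kept CGE cells, the share with an IGF2BP1 read was 50.1% at E12.5 and 22% at E14.5, or 30.4% and 13.7% after thinning. By chip the shares before thinning overlapped: the E12.5 chip 187, at 26.2%, lay below the E14.5 chips 160 and 161, the latter at 33.3%. The log2 change of IGF2BP1 over all cells was -1.7 ± 0.67, not called after adjustment (edgeR adjusted p = 0.479).

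NFIX had the clearest separation of the late genes. The E12.5 chips 172, 175, 179, 182 and 187 gave 21.7, 4.75, 35.9, 22.3 and 9.27 CPM. The E14.5 chips 160, 161, 162 and 190-2 gave 125.1, 102.1, 93.2 and 41.7 CPM, all above the highest E12.5 chip. Every cell on chips 160, 161 and 162 had an NFIX read (11 of 11, 21 of 21 and 13 of 13), as did 6 of 12 cells on chip 190-2. At E12.5 the count was 16 of 23, 3 of 12, 17 of 31, 15 of 23 and 8 of 18 cells. Means were 18.8 ± 12.3 (SD, n = 5) and 90.5 ± 35.2 CPM (SD, n = 4). The log2 change was 2.27 ± 0.96 (edgeR p = 0.0236, adjusted p = 0.684). DESeq2, which called 3.88% of genes, also called NFIX, with a change of 2.45 and an adjusted p of 0.0344. The one E14.5 chip here that is numbered after the E12.5 chips, 190-2, lay nearest to E12.5. Over all kept cells chips 189-2 and 190-2 gave 40.4 and 47.9 CPM, against 7.48 to 35.4 CPM on the 6 E12.5 chips. Pooled over all kept CGE cells NFIX was read in 30.4% at E12.5 and 55.8% at E14.5, or 15% and 43.4% after thinning. By chip the share before thinning ran from 15.1% to 45.9% and from 27.4% to 85.7%, which overlapped.

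NFIB, at 172.0 to 527.4 CPM on the E12.5 chips and 501.9 to 707.6 CPM on the E14.5 chips, overlapped by 1 chip, and its change was 0.89 ± 0.59. NFIA covered 62.3 to 127.4 CPM and then 68.4 to 178.8 CPM, with a change of 0.40 ± 0.64. ZBTB20 covered 240.7 to 796.4 CPM and then 168.6 to 573.5 CPM, with a change of -0.26 ± 0.51. For NFIA and ZBTB20 the difference lay within the spread of the chips. The NFIB change exceeded its standard error but was not called (edgeR p = 0.138). Of its E12.5 chips, only chip 172, at 527.4 CPM, reached the E14.5 range.

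Marker lists in the same CGE sums also moved between the ages. The list of CGE region genes (Nr2f2, Nr2f1, Sp8 and Prox1) summed to 512.9 to 1729 CPM at E12.5 and 144.5 to 305.4 CPM at E14.5. Neurogenic intermediate progenitor markers summed to 1597 to 3438 and 989.2 to 1542 CPM, and neuron markers to 2171 to 3932 and 3084 to 7622 CPM. Radial glia markers overlapped, at 764.0 to 1668 and 600.2 to 1244 CPM. The part of these lists in the members' values was not tested.

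**Figure D2:**
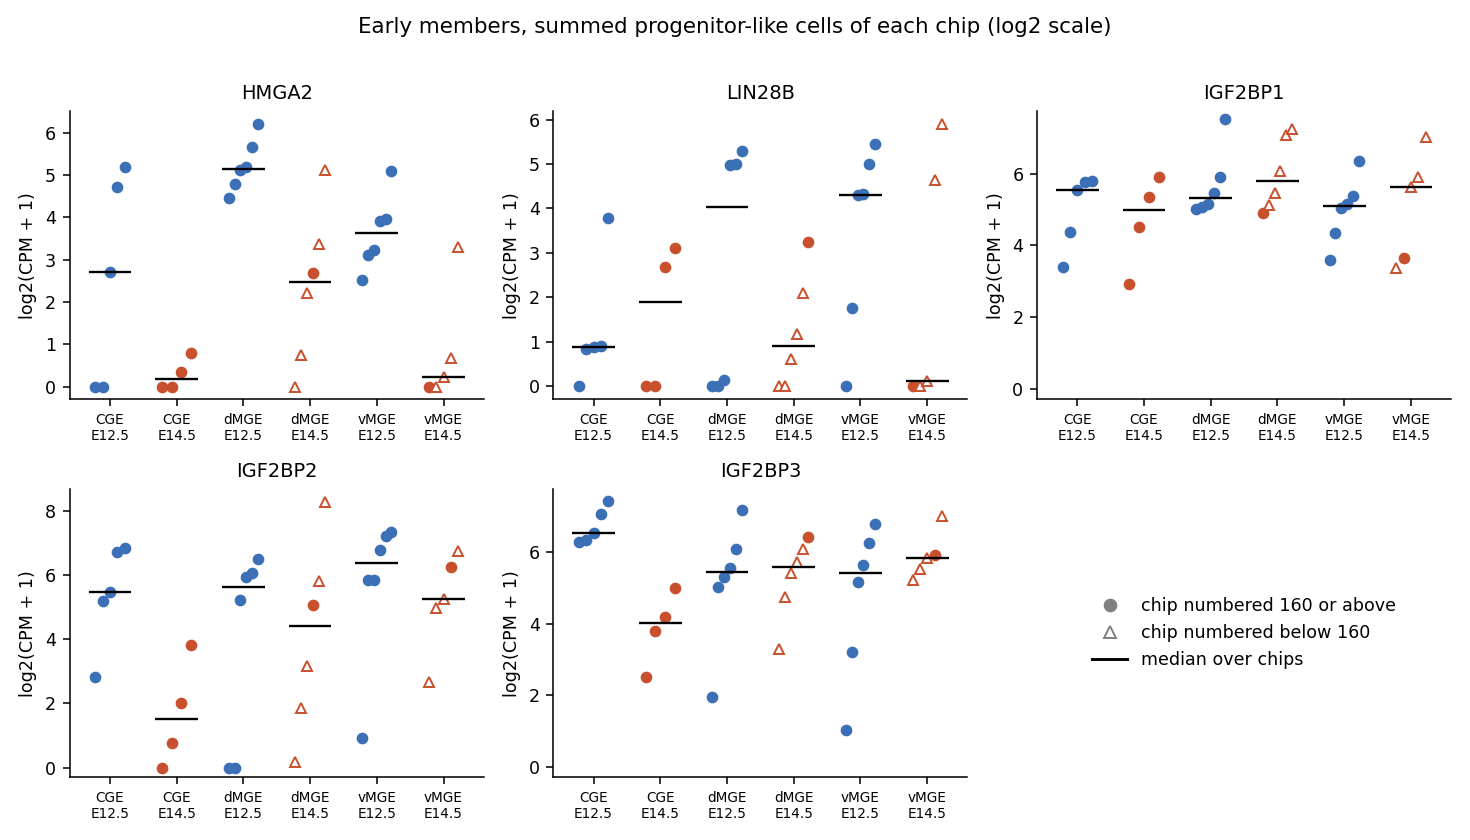
Level of the 5 early genes in progenitor-like cells, as log2(CPM + 1) on the vertical axis, for each zone and age on the horizontal axis; each symbol is a chip, circles are chips numbered 160 or above, open triangles are chips numbered below 160, and lines are medians. In CGE the E14.5 chips of IGF2BP3 lie below all E12.5 chips, while LIN28B and IGF2BP1 overlap in all 3 zones.

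**Figure D3:**
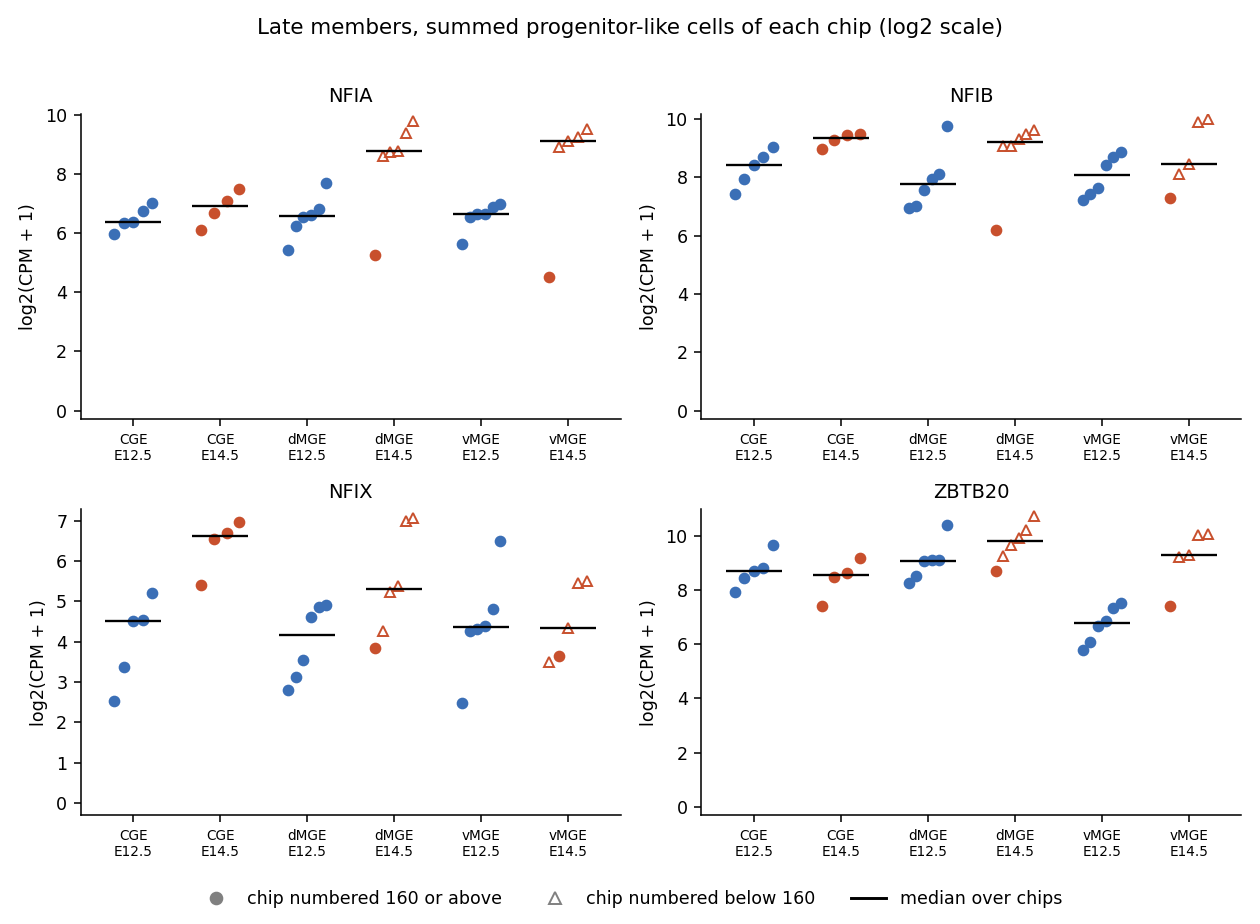
Level of the 4 late genes in progenitor-like cells, drawn in the same way: log2(CPM + 1) by zone and age, with 1 symbol per chip, open triangles for chips numbered below 160, and lines at the medians. The CGE chips of NFIX separate by age, and the high NFIA values in MGE at E14.5 are all open triangles.

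Neuron-like cells of the CGE, with 3 chips at each age, also had higher NFIX at E14.5. It stood at 10.3, 3.32 and 3.16 CPM at E12.5 (chips 172, 175 and 182) and at 102.7, 56.1 and 39.04 CPM at E14.5 (chips 160, 161 and 162). It was read in 27% of the cells and then in 69.8%. The ratio of medians was 16.9 and the log2 change 3.56 ± 1.60 (edgeR p = 0.0353), not called after adjustment. NFIB, at 353.1, 405.9 and 188.9 CPM and then 581.5, 541.8 and 488.4 CPM, and ZBTB20, at 207.1 to 378.3 CPM and then 666.7, 498.2 and 416.4 CPM, also had no overlap between the ages. Marker lists separated by age in the same sums: CGE region genes lay at 663.2 to 1947 and then 153.7 to 227.7 CPM, intermediate progenitor markers at 1214 to 1731 and then 645.3 to 1036 CPM, and dissociation and immediate early genes at 326.6 to 780.5 and then 1075 to 1230 CPM. Their part in the members' values was not tested. NFIA did overlap, with 48.9 to 239.2 CPM and then 63.1 to 79.2 CPM.

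On the early side, IGF2BP1 was at 89.5, 58.2 and 28.6 CPM at E12.5 and at 23.5, 9.02 and 6.20 CPM at E14.5. IGF2BP2 was at 79.7, 28.02 and 22.2 CPM and then at 4.78, 21.8 and 6.34 CPM. Both were lower on every E14.5 chip, IGF2BP2 by a narrow margin. IGF2BP3, which separated the ages in progenitor-like cells, overlapped here, at 55.8 to 124.6 and then 40.3 to 61.3 CPM, with a change of -0.83 ± 0.83. HMGA2 was at 14.6, 98.5 and 0 CPM and then at 0, 0.0423 and 0 CPM, the last from 2 reads in 2 cells; the size of its fitted change, -11.06 ± 3.57, depends on the prior count. The edgeR test left its adjusted p at 1, and DESeq2, which called 1.84% of genes here, gave 0.000480. With the stricter cell filter, the change turned to 1.34. In all, 3 members were higher and 2 lower without overlap, where 13.2% of the 14282 tested genes had no overlap with 3 chips against 3. By edgeR 0 members and 0.007% of genes (1 gene) were called.

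**Figure D4:**
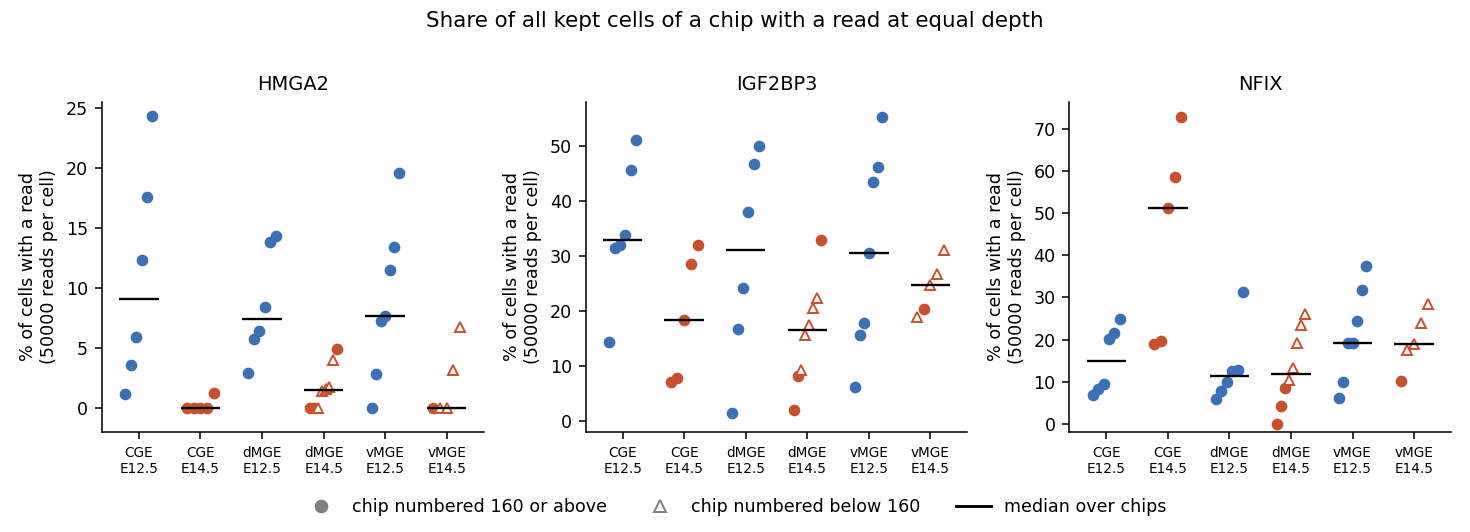
Percent of kept cells with at least 1 read of HMGA2, IGF2BP3 or NFIX (vertical axis) after thinning each cell to 50000 reads, by zone and age (horizontal axis), with 1 symbol per chip. In CGE the pooled share went from 10.3% to 0.259% for HMGA2 and from 15% to 43.4% for NFIX.

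In dMGE and vMGE progenitor-like cells, where the E14.5 cells on chips below 160 lay almost all in cluster 4, the late genes NFIA and ZBTB20 had the higher values at E14.5, and HMGA2 the lower ones. The single call among the 9 genes was ZBTB20 in vMGE, which was 5.69 times higher by the ratio of medians. The edgeR test called 0.0224% of genes in dMGE (3 genes, none of them a member) and 0.0673% in vMGE (9 genes). No member separated the ages over all chips in either zone, where 0.629% of genes did so in dMGE and 2.02% in vMGE.

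ZBTB20 in vMGE progenitor-like cells was read at 54.2 to 183.3 CPM on the 6 E12.5 chips. The E14.5 chips 91, 93, 96, 98 and 194 gave 587.5, 1035, 1054, 614.9 and 166.8 CPM. The 4 chips numbered below 160 lay above all E12.5 chips, and chip 194, the only later one, lay inside the E12.5 range. The means were 113.4 ± 51.2 (SD, n = 6) and 691.6 ± 367.9 CPM (SD, n = 5), and ZBTB20 rose by 2.61 ± 0.47 on the log2 scale (edgeR, adjusted p = 0.0132). With chips 160 and above alone the change was 0.59 (edgeR adjusted p = 0.820), with a term for the chip series 0.99 (0.743), and over all cells of a chip 0.89 (0.514). The call was also lost, at adjusted p from 0.0514 to 0.0929, when any one of the vMGE chips 93, 96, 174, 183, 185 or 196 was left out, with changes of 2.35 to 2.62. Marker lists moved in the same vMGE sums. Neuron markers ran from 1497 to 4247 CPM at E12.5, from 4965 to 6563 CPM on the E14.5 chips below 160 and stood at 2449 CPM on chip 194. Intermediate progenitor markers, at 1432 to 3149 and then 571.3 to 1290 CPM, separated the ages. Cycling markers had medians of 9449 and 15740 CPM and dissociation genes of 832.3 and 75.06 CPM, with chip 194 at 10090 and 820.8 CPM. The part of these lists in the ZBTB20 values was not tested. In dMGE, ZBTB20 had a lowest, median and highest level of 301.6, 537.0 and 1339 CPM at E12.5 and 408.6, 883.8 and 1690 CPM at E14.5, with a change of 0.64 ± 0.44.

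NFIA showed the same split by chip series in both zones. In dMGE the 6 E12.5 chips ran from 42.1 through a median of 93.7 to 206.6 CPM. The E14.5 chips 90, 92, 97, 99 and 101 gave 878.9, 387.2, 436.2, 675.4 and 433.1 CPM, all above E12.5, while chip 193 gave 37.7 CPM, below all of E12.5. In vMGE the E12.5 chips ran from 49.03 through 99.3 to 124.9 CPM. Chips 91, 93, 96 and 98 gave 480.7, 607.2, 559.1 and 743.1 CPM at E14.5, and chip 194 gave 21.7 CPM, again below every E12.5 chip. The log2 changes were 2.19 ± 0.58 in dMGE (edgeR adjusted p = 0.106) and 2.31 ± 0.59 in vMGE (edgeR adjusted p = 0.133). Without chip 193 the dMGE change was 2.37 and was called (edgeR adjusted p = 0.0146), and without chip 194 the vMGE change was 2.62 and was called (0.0103). Leaving out chip 194 also brought the dMGE change, 2.19, past the threshold (0.0293). With chips 160 and above alone both changes turned downward, to -1.42 and -2.13. Each then rested on 1 E14.5 chip, chip 193 with 16 cells in dMGE and chip 194 with 10 cells in vMGE.

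Over all kept cells the later dMGE chips 191, 192 and 193 gave 225.4, 90.4 and 31.9 CPM of NFIA and chip 194 gave 49.8 CPM; on chip 191, 1 cell held 98.1% of the NFIA reads. Chips 193 and 194 were thus low in this sum as well. ZBTB20 was less uniform among them, at 5219, 1190, 260.7 and 169.3 CPM in the same order. NFIB gave 1558, 2018, 93.8 and 324.4 CPM, and 1 cell held 99.0% of its reads on chip 191 and 61.3% on chip 192.

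NFIB in progenitor-like cells had 121.2, 216.3 and 859.9 CPM as lowest, median and highest level at E12.5 in dMGE. Its E14.5 chips below 160 lay between 533.1 and 777.9 CPM, and chip 193 was at 72.6 CPM. In vMGE the E12.5 levels were 149.2, 271.4 and 466.4 CPM, the E14.5 chips below 160 ran from 278.1 to 1019 CPM, and chip 194 was at 156.2 CPM. The changes of 0.85 ± 0.51 and 0.93 ± 0.53 were not called. NFIX in dMGE had 5.98, 17.1 and 29.3 CPM at E12.5. At E14.5 its lowest and median levels were 13.4 and 38.6 CPM, and chips 97 and 99 lay at 125.3 CPM or above, with a change of 1.80 ± 0.83 (edgeR p = 0.0378, adjusted p = 0.267). In vMGE its change was -0.22 ± 0.85, and the ages covered 4.61 to 89.97 and 10.2 to 44.2 CPM.

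Among the early genes HMGA2 had a lower median at E14.5 in both zones. The only later E14.5 chips here were 193 in dMGE, with 16 cells, and 194 in vMGE, with 10 cells. In dMGE its E12.5 chips had 20.97, 34.5 and 72.7 CPM as lowest, median and highest. The E14.5 chips gave 3.64, 33.9, 0.665, 0 and 9.42 CPM on chips 101, 90, 92, 97 and 99 and 5.40 CPM on chip 193. Only chip 90 reached the E12.5 range, and 94.5% of its HMGA2 reads came from 1 cell. In vMGE the E12.5 chips had 4.69, 11.3 and 33.2 CPM, and the E14.5 chips gave 8.85 CPM on chip 91, 0.177 and 0.593 CPM on chips 93 and 96, and 0 on chips 98 and 194. Chip 91 lay above the E12.5 chips 174, 177 and 196, which had 7.66, 4.69 and 8.44 CPM. The log2 changes of -2.17 ± 1.60 and -2.83 ± 1.76 were not called. Pooled over all kept cells the share with a read was 16% and 4.18% in dMGE, and 13.9% and 3.26% in vMGE. After thinning the pairs were 8.79% and 1.99%, and 9.12% and 1.90%. Before thinning the dMGE chip shares ran from 7.35% to 23.4% and from 0% to 7.25%. Those of vMGE ran from 2.04% to 32.1% and from 1.23% to 8.11%.

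The other early genes showed no separation by age in MGE progenitor-like cells. IGF2BP1 ran from 31.7 to 183.4 and from 28.9 to 151.6 CPM in dMGE, and from 11.1 to 81.1 and from 9.28 to 129.8 CPM in vMGE. IGF2BP2 ran from 0 to 89.03 and from 0.117 to 304.4 CPM in dMGE, and from 0.898 to 159.6 and from 5.29 to 106.1 CPM in vMGE. IGF2BP3, which separated the ages in CGE, ran from 2.87 to 143.6 and from 8.69 to 84.8 CPM in dMGE, and from 1.02 to 108.6 and from 36.1 to 127.7 CPM in vMGE. LIN28B reached 38.4 and 8.43 CPM in dMGE and 42.4 and 58.5 CPM in vMGE. The fitted changes of these 4 genes lay between -2.90 and 0.68, and their standard errors between 0.77 and 2.10.

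ACTB, which encodes a cytoskeletal actin and whose messenger RNA is a known target of IGF2BP1, divided the MGE chips in the way NFIA did. In dMGE progenitor-like cells it was at 309.9 to 2241 CPM at E12.5, at 6482 to 11020 CPM on the E14.5 chips below 160 and at 885.4 CPM on chip 193. In vMGE the values were 375.9 to 1365, 6633 to 11240 and 348.1 CPM. Neuron markers in the same sums ran from 1542 to 3650 CPM at E12.5, from 3461 to 9284 CPM on the E14.5 chips below 160 and stood at 3632 CPM on chip 193 in dMGE. Dissociation and immediate early genes ran from 409.7 to 824.6 and from 35.85 to 1637 CPM, and stood at 932.7 CPM on chip 193. The part of these in the members' values was not tested.

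MGE neuron-like cells had 4 chips at E12.5 and 6 at E14.5 in dMGE, and 4 at each age in vMGE, with the 2 ages in different clusters on all E14.5 chips but chip 193. Neuron markers summed to 6735 to 8992 CPM at E12.5, 13240 to 22640 CPM on the E14.5 chips below 160 and 7855 CPM on chip 193 in dMGE, and to 5958 to 8738 and then 15360 to 20310 CPM in vMGE. Dissociation genes had medians of 907.8 and 208.5 CPM in dMGE and of 1079 and 64.38 CPM in vMGE. Their part in the members' values was not tested. IGF2BP2 in dMGE was the one member without overlap: 20.4, 114.4, 25.04 and 26.8 CPM at E12.5 against 0.115 to 17.9 CPM at E14.5, with a median of 4.15. Its change was -2.66 ± 1.32 and not called; 2.56% of genes did not overlap in this zone and 10.9% in vMGE, where 0 members separated. HMGA2 had 0.0480 to 15.3 CPM and then 0 to 0.461 CPM in dMGE, and 0 to 16.9 and then 0 to 0.116 CPM in vMGE. Its edgeR adjusted p was 0.201 and 0.172, and its DESeq2 adjusted p was 0.0466 and 0.00521. DESeq2 called 7.01% of genes in dMGE and 11.7% in vMGE. ZBTB20 had a median of 397.5 and then 1004 CPM in dMGE and of 320.6 and then 700.6 CPM in vMGE, with log2 changes of 1.07 ± 0.45 and 1.07 ± 0.48 that were not called. NFIA changes of 1.55 ± 0.73 and 0.88 ± 0.77 and NFIB changes of 1.21 ± 0.55 and 1.15 ± 0.59 were not called either. The edgeR test called 0.497% of genes in dMGE (71 genes) and 1.29% in vMGE (184 genes), and 0 of the 9 members. Chip 193 was the lowest of the E14.5 dMGE chips for NFIA, NFIB and ZBTB20, with 8.80 CPM of NFIA and 106.2 CPM of NFIB.

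Whether the change with age differed between zones was tested as the mean of the dMGE and vMGE changes minus the CGE change. In progenitor-like cells the difference was 1.89 ± 0.61 on the log2 scale for ZBTB20 (edgeR p = 0.00405, adjusted p = 0.283), 2.89 ± 1.17 for IGF2BP3 (p = 0.0186, adjusted p = 0.402) and 1.86 ± 0.78 for NFIA (p = 0.0222, adjusted p = 0.422). No member was called, and 0% of genes were called (0 genes, with 1213 at an unadjusted p under 0.05 and 544 by DESeq2). NFIX had a difference of -1.48 ± 1.11 (edgeR adjusted p = 0.791). In neuron-like cells 0.014% of genes (2 genes) and 0 members were called. A difference between CGE and MGE in these genes was thus not detected by edgeR, and in the MGE it carries the chip series.

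The levels of the 9 genes can be compared with each other only per length of transcript. In CGE progenitor-like cells at E12.5 the median levels per kilobase, in CPM, were 23.1 for NFIB, 20.99 for IGF2BP3, 13.3 for ZBTB20, 7.58 for NFIA, 6.08 for IGF2BP2, 4.77 for IGF2BP1, 2.95 for NFIX, 0.825 for HMGA2 and 0.0918 for LIN28B. At E14.5 the order was NFIB at 43.9, NFIX at 13.3, ZBTB20 at 12.3, NFIA at 10.9, IGF2BP3 at 3.46, IGF2BP1 at 3.19, LIN28B at 0.298, IGF2BP2 at 0.260 and HMGA2 at 0.0192. NFIX thus moved up the order with age, from below 6 other members to below NFIB alone, and IGF2BP3 moved down. Neighbours in these orders overlapped over chips, except NFIB and NFIX at E14.5, and were not tested against each other.

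The sparse genes rested on few cells, which bears on every value above. In the progenitor-like sums 1 cell supplied a median of 95.1% of a chip's LIN28B reads, and more than 50% on 20 of the 22 chips with any. For HMGA2 the median was 75.7% over 25 chips and for IGF2BP2 53.6% over 29 chips. IGF2BP3, NFIX, IGF2BP1 and NFIA had medians of 40.7%, 38.4%, 34.3% and 33% over 32 chips, and NFIB and ZBTB20 had 20.9% and 21.8%. Reads carry no molecular identifiers, so many reads of 1 cell can descend from few molecules.

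On the 24 chips with both classes, NFIX was higher in progenitor-like than in neuron-like cells on 22 and NFIA on 20. HMGA2 was higher in progenitor-like cells on 18 chips and lower on 5, with a median of 5.49 against 0.0954 CPM. IGF2BP3 went the other way, with 17 chips higher in neuron-like cells. IGF2BP2 was higher in progenitor-like cells on 16 chips, and NFIB was split evenly, 12 against 12.

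Lists of related genes were read beside the members. Of 17 genes of the let-7 and LIN28 axis (processing enzymes, LIN28A and known let-7 targets), 14 were tested and 0 were called in any zone or class; in progenitor-like cells their median log2 change was -0.24 in CGE, 0.05 in dMGE and -0.06 in vMGE, beside -0.15, 0.17 and 0.03 over all genes. Of 11 genes of the IGF2BP target and IGF axis, 9 were tested in progenitor-like cells and ACTB alone was called, upward in dMGE (2.71 ± 0.53, edgeR adjusted p = 0.0471) and vMGE (2.61 ± 0.54, edgeR adjusted p = 0.0400), with the chip split given above. In neuron-like cells ACTB was again the 1 called gene, by 2.31 ± 0.43 in dMGE (edgeR adjusted p = 0.0148) and 2.88 ± 0.46 in vMGE (edgeR adjusted p = 0.00549). Of 20 late or gliogenic genes, 18 were tested in progenitor-like cells and 0 were called, and in neuron-like cells HES5, a Notch target of progenitors, fell in vMGE: it was at 13.2 to 35.4 CPM on the 4 E12.5 chips and at 0 on the 4 E14.5 chips, all numbered below 160 (edgeR adjusted p = 0.0310). Intermediate progenitor and cycling markers were also lower at E14.5 in those vMGE sums, and their part in the HES5 values was not tested. In progenitor-like cells the IGF2BP target and IGF list had median log2 changes of -0.21 in CGE, 0.25 in dMGE and 0.96 in vMGE. The late or gliogenic list had -0.01, 0.10 and 0.22 in the same order. In the MGE these medians carry the chip series.

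Likeness was described by Spearman's rho of log2(CPM + 1) over the 32 chips of progenitor-like sums, among the 7146 genes that averaged at least 20 CPM; chips share zone, age and series, so these are descriptions. NFIA was most like RELL1 (0.842), MKI67 (0.824), a proliferation marker, and LRRC58 (0.823). ZBTB20 was most like TTF2 (0.786), DHX9 (0.775) and GTF2A1 (0.758). NFIB was nearest to DNMT1 (0.701), the maintenance DNA methyltransferase, then LRRC58 (0.691) and FAM126B (0.674). NFIX was nearest to TROAP (0.614), NFIB (0.613) and NCS1 (0.592).

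The early genes had lower coefficients at the top of their lists. IGF2BP1 was most like PNN (0.687), SLC35F1 (0.661) and CSTF2T (0.661), and IGF2BP2 like RCOR2 (0.637), NOL11 (0.627) and PUF60 (0.601). IGF2BP3 was most like LDHA (0.635), WBP11 (0.633) and D2ERTD750E (0.629). HMGA2 was nearest to RPS19BP1 (0.645), MRPS7 (0.639) and CRABP2 (0.608), and LIN28B to ACSL3 (0.594), FMNL2 (0.589) and SCARB2 (0.586). Among the members themselves the highest pairs were NFIA with NFIB (0.618), NFIA with ZBTB20 (0.616) and NFIB with NFIX (0.613).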

How the data were processed

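Single-cell polyadenylated RNA was read from 37 C1 chips in 6 groups (3 zones at 2 ages). Per the submitters' processing notes, STAR 2.4.0, HTSeq 0.6.1, CASAVA, FastQC and SAMtools were used with the build mm9; their settings are not given in the sources used here. The authors deposited whole-number read counts per gene, which were tested as they are, and a table of RPKM, from which only gene lengths were read.

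Cells needed 1000 detected genes and 50000 reads. They were clustered with scanpy 1.11.5 (2000 variable genes, scaled, 30 components, 15 neighbours, Leiden at resolution 1, leidenalg 0.10.2), leaving out the 9 genes and the 3 related lists. A cluster took the name of its leading marker list, if that list scored 0.2 or more and 4 of its genes were each read in 10% of the cluster's cells. It stayed unnamed when its top genes held more markers of other classes than of its own. Any class other than progenitor-like and neuron-like also needed a marker of its own among those top genes. Radial glia, cycling and intermediate progenitor lists were joined as progenitor-like, but the progenitor-like clusters (3, 4, 7 and 9) were all named by the cycling list. Doublets were not called. Reads were summed per chip and class with at least 10 cells. One fit of edgeR 4.0.16 per class (R 4.3.3) held all 6 groups (quasi-likelihood, TMM, filterByExpr), with calls at 0.05 after Benjamini-Hochberg adjustment over all genes. The SE given with an edgeR change is approximate. It was derived as the absolute log2 change divided by the square root of the test's F statistic. On simulated counts in CGE progenitor-like sums (13091 genes) the test recovered 1% of 4-fold and 30% of 16-fold changes, and in neuron-like sums (13923 genes) 0% and 25%.

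All 9 genes were named in every comparison, with up to 4 called genes per related list and comparison and the 3 most similar genes per member. The members and lists were chosen with earlier results of these data known. Alternatives covered DESeq2 1.42.0, limma 3.58.1 on log2 of the mean CPM over a chip's cells (each cell weighted equally) + 1 or + 10, size factors, filters, thinning, cluster settings, chip series, depth and leaving out each chip. Clustering without scaling genes, and leaving out chips under 2000 median genes, were chosen after seeing the data.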

Additional observations from a re-analysis of the deposited data

Results flagged for a closer look

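In groups of 4 to 10 chips, a chip stood apart when its gap to the nearest other chip, divided by the range of the group, passed Dixon's critical value. This held for 18 of the 90 groups of a gene, class, zone and age that were examined; chance flags about 1 in 20 groups. Levels of a gene in few cells are skewed, and for several of these chips 1 cell held most of the reads.

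In progenitor-like cells, chip 181 of dMGE at E12.5 was highest for IGF2BP1 (183.4 CPM, next 59.68), NFIB (859.9 CPM, next 273.9) and ZBTB20 (1339 CPM, next 549.2), with 82.5%, 54.1% and 65% of the reads from 1 of its 13 cells. Chip 185 of vMGE at E12.5 was highest for HMGA2 (33.16 CPM) and NFIX (89.97 CPM, next 27.2). At E14.5, HMGA2 was highest on chip 90 of dMGE (33.92 CPM, next 9.424, 94.5% from 1 cell) and on chip 91 of vMGE (8.846 CPM, next 0.5933). IGF2BP2 was highest on chip 97 of dMGE at E14.5 (304.4 CPM, next 55.13, 97.7% from 1 cell), and IGF2BP3 on chip 98 of vMGE at E14.5 (127.7 CPM, next 59.39, 86.1% from 1 cell). LIN28B was highest on chip 182 of CGE at E12.5 (12.84 CPM, next 0.8539). NFIB was lowest on chip 193 of dMGE at E14.5 (72.61 CPM, next 533.1), the one chip of that group with a number of 160 or above.

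In neuron-like cells, IGF2BP2 was highest on chip 173 of dMGE at E12.5 (114.4 CPM, next 26.75), on chip 177 of vMGE at E12.5 (125.4 CPM, next 47.28) and on chip 98 of vMGE at E14.5 (295.4 CPM, next 21.3, 91.5% from 1 cell). Chip 173 was also lowest for IGF2BP3 (35.97 CPM, next 75.65). LIN28B was highest on chip 99 of dMGE at E14.5 (76.55 CPM, next 16.23, all from 1 cell) and on chip 91 of vMGE at E14.5 (190.2 CPM, next 3.139, 88.1% from 1 cell). NFIX was highest on chip 97 of dMGE at E14.5 (87.06 CPM, next 26.24, 95.6% from 1 cell).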

How the results depend on the processing

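Shares of called genes depended strongly on the processing, and in the MGE so did the direction of the late genes. The cause of each change was not tested. No paired analysis was possible because each chip holds one zone at one age and its replicate number is only a name. In CGE progenitor-like cells no member whose change exceeded its standard error changed sign: with chips left out in turn included, NFIX lay between 1.87 and 2.64, HMGA2 between -8.96 and -0.96, IGF2BP2 between -5.69 and -1.21 and IGF2BP3 between -3.29 and -0.12 on the log2 scale. On simulated counts a 4-fold change was rarely recovered.

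The share of tested genes called by edgeR, 0.007% and 0% in CGE, 0.497% and 0.0224% in dMGE, 1.29% and 0.0673% in vMGE, and 0.014% and 0% for MGE minus CGE, moved as follows, always with neuron-like cells named before progenitor-like cells. DESeq2's Wald test gave 1.84% and 3.88% in CGE, 7.01% and 7.03% in dMGE, 11.7% and 3.58% in vMGE, and 4.05% and 4.07% for the difference. Limma on log2 of the mean CPM over cells + 1 gave 0.091% and 0.0374%, 1.72% and 1.04%, 4.55% and 0.374%, and 0.126% and 0.0224%; with + 10 it gave 0.07% and 0.0374%, 1.75% and 1.63%, 4.47% and 0.464%, and 0.161% and 0.0374%. DESeq2's size factors in edgeR gave 0.0748% in dMGE progenitor-like cells. A Leiden resolution of 0.5, under which no chip below 160 entered either class, gave 0% and 0% in dMGE, 0.213% and 0.527% in vMGE, and 0.0784% and 0.102% for the difference. A resolution of 2 gave 0.122% in dMGE and 0.0216% in vMGE neuron-like cells, and 0.00719% and 0.0154% for the difference. Clustering without scaling genes, chosen after seeing the data, gave 0% and 0.139% in dMGE and, in neuron-like cells, 0.00728% in vMGE and for the difference. All cells of a chip gave 0% in CGE, 0.157% in dMGE, 0.00628% in vMGE and 0% for the difference. At least 5 cells per chip gave 0% in dMGE and 0.00748% in vMGE progenitor-like cells. A term for the chip series gave 0% and 0% in dMGE, 0.007% and 0% in vMGE and 0.007% for the neuron-like difference. Chips 160 and above alone gave 0.0117% in CGE neuron-like cells, 0% and 0% in dMGE, and in progenitor-like cells 0.0062% in vMGE and for the difference; neuron-like vMGE cells and the neuron-like difference could not be fitted on those chips. A term for median genes per cell gave 0% and 3.77% in dMGE, 0% in vMGE neuron-like cells and 0.007% for the neuron-like difference. No filter on low counts gave 0.0321% in dMGE progenitor-like cells and 0.0314% for the neuron-like difference. The stricter cell filter gave 0% and 0.0497% in dMGE, 0% and 0.263% in vMGE, and 0% for the neuron-like difference. Thinning gave 0.504% in dMGE progenitor-like cells and 2.51% and 0.352% in vMGE. Leaving out chips under 2000 median genes, chosen after seeing the data, gave 0.156% in vMGE progenitor-like cells. Leaving out each chip in turn gave 0.00657% to 0.00717% and 0% to 0.00711% in CGE, 0.0279% to 2.93% and 0% to 1.25% in dMGE, 0.0976% to 2.12% and 0.00748% to 0.501% in vMGE, and 0.0131% to 0.572% and 0% to 0.00748% for the difference.

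A change counts as reversed here when its sign turned and the reported change was called or larger than its standard error. Of 174 sign changes under alternatives other than leaving out a chip, 59 were reversals in this sense; the others were of reported changes within their standard error and are not listed, such as LIN28B in dMGE neuron-like cells (0.75 ± 2.06, down to -12.78) and IGF2BP1 in vMGE progenitor-like cells (0.50 ± 0.81, down to -1.67). The reversals lay mostly in the MGE and under settings that remove or absorb the chips below 160. Some turned values lay within their own standard error. Examples are the IGF2BP2 progenitor-like difference at resolution 2 (-0.01 ± 1.78) and vMGE neuron-like NFIB with a term for median genes (-0.10 ± 1.24). With chips 160 and above alone, NFIA was -2.92 in dMGE neuron-like, -1.42 in dMGE and -2.13 in vMGE progenitor-like cells, NFIB -1.14, -2.02 and -0.86 in the same order, NFIX -1.40 and -0.35 and ZBTB20 -0.99 and -0.53 in dMGE neuron-like and progenitor-like cells; the progenitor-like differences became -1.33 for HMGA2 and -2.20 for NFIA. With a term for the chip series, NFIA was -2.95 and -1.78 in dMGE and -3.88 and -1.75 in vMGE (neuron-like and progenitor-like), with differences of -2.67 and -2.16. NFIB was -1.14 and -1.55 in dMGE and -1.42 and -1.27 in vMGE, ZBTB20 -1.0 and -0.90 in dMGE and -1.21 in vMGE neuron-like cells, NFIX -1.45 and -2.41 in dMGE and vMGE neuron-like cells, and the IGF2BP1 neuron-like difference -0.98. At Leiden resolution 0.5, NFIA was -1.68 and -1.26 in dMGE and -0.98 and -2.68 in vMGE, with differences of -0.89 and -2.57. There NFIB was -0.48 and -0.94 in dMGE and -0.70 in vMGE progenitor-like cells, NFIX -0.18 and -0.70 and ZBTB20 -0.80 and -0.62 in dMGE and vMGE neuron-like cells, and the HMGA2 progenitor-like difference -0.29. The other reversals under this rule included the IGF2BP2 progenitor-like difference at resolution 2 (-0.01), the IGF2BP3 differences over all cells (-0.09), and NFIB in vMGE progenitor-like cells with at least 5 cells per chip (-1.0). Limma gave -0.53 and -0.29 for the HMGA2 progenitor-like difference and -0.55 and -0.18 for NFIX in vMGE neuron-like cells, with the smaller and the larger pseudocount. With a term for median genes per cell, neuron-like NFIB was -0.18 in dMGE and -0.10 in vMGE, NFIX -0.32 in vMGE, and ZBTB20 -0.66 in dMGE and -0.57 in vMGE. Under the stricter cell filter, neuron-like HMGA2 was 1.34 in CGE with a difference of -8.10, IGF2BP2 0.73 in dMGE and NFIX -0.35 in vMGE. Leaving out 1 chip turned 36 signs, all of changes within their standard error, such as IGF2BP2 in vMGE neuron-like cells (0.28 ± 1.43, down to -2.99), and reversed none under this rule.

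ZBTB20 in vMGE progenitor-like cells, the only called member, kept its call in 9 of 16 other settings and in 26 of 32 fits that left out 1 chip. Most of those 32 fits left out a chip of CGE or dMGE, which is not part of this comparison. Every fit that lost the call left out a vMGE chip (93, 96, 174, 183, 185 or 196), and vMGE had only 6 chips at E12.5 and 5 at E14.5. Besides the settings given with its values in the report, edgeR's adjusted p was 0.769 at Leiden resolution 0.5 (0.50), 0.170 at resolution 2 (1.83), 0.101 with at least 5 cells per chip (2.81) and 0.179 without scaling (1.51). NFIA passed the threshold in dMGE progenitor-like cells under DESeq2 (adjusted p = 0.00179), thinning (edgeR, 0.0418) and the term for median genes (edgeR, 0.0371), and in vMGE under DESeq2 (0.00416) and the stricter cell filter (edgeR, 0.0461).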
